A study of Homo sapiens with 4 samples.

Results

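The genes described here encode the subunits of the IκB kinase (IKK) complex and kinases, adaptors and ubiquitin ligases upstream of it. They are 10 genes in all: CHUK, IKBKB, IKBKG, MAP3K14, MAP3K7, TRAF2, TRAF3, TRAF6, BIRC2 and MYD88. They were chosen by symbol, through the probe annotation of the array and a table of current gene names. Of the 4604 named genes on the array, 8 of the 10 had at least 1 probe (17 probes together) and 7 had a value on at least 3 of the 4 arrays. IKBKB and TRAF2 had no probe under their symbol or an older alias and were not analysed here, and TRAF3 had values on days 3 and 4 only. The measurements are two-colour cDNA arrays of EJM, a human multiple myeloma line (a malignancy of plasma cells, which make antibodies). The cells carry an IκBα super-repressor, a form of IκBα that resists signal-induced breakdown, under control of the tetracycline repressor. Cells were induced with doxycycline at 20 µg/ml and 37 °C, and induced cells (Cy5) were set against uninduced cells of the same line (Cy3) after 1, 2, 3 and 4 days, with 1 array for each day. The transgene is present in both channels, and no channel holds cells without it or parental cells given doxycycline.

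As background, NF-κB dimers are held inactive by IκB proteins. In the canonical route, receptors act through adaptors such as MYD88 and TRAF6 and the kinase TAK1 (MAP3K7) on the IKK complex, which is built of the kinases IKKα (CHUK) and IKKβ (IKBKB) and the scaffold NEMO (IKBKG), and the complex marks IκBα for destruction. In the non-canonical route, the kinase NIK (MAP3K14) acts through IKKα, and NIK itself is kept low by a ligase complex of TRAF3, TRAF2 and the cIAP proteins (BIRC2 and BIRC3). Lesions in TRAF3, the cIAP genes and MAP3K14 are known in multiple myeloma. The super-repressor acts on NF-κB itself, below all of these genes in the pathway.

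The values are log2 ratios of induced over uninduced cells, so 0 means no difference and 1 means 2-fold higher in induced cells. The direction of the ratio was taken from the dyes in the labels (Cy5 over Cy3) and is not stated with the values; the opposite orientation would turn every sign. The log base is not stated either: base 2 was used, and another base would change the folds but not the test results. The arrays had values for between 67.7% and 91.0% of 15246 probes, and the SD over probes was 0.517 and 0.569 on days 1 and 2 against 0.345 and 0.380 on days 3 and 4. The member probes had 11, 15, 16 and 16 values of 17 on days 1 to 4, so a gene's mean on day 1 can rest on fewer probes than on later days. All 10 plasma cell markers looked at (SDC1, CD38, XBP1, JCHAIN and others) had values on at least 3 arrays, as had 7 of 9 T cell and 5 of 8 myeloid markers. A ratio does not give a level, so these counts do not test the identity of the cells.

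Because the super-repressor restrains NF-κB, the promoters of the genes are shown first, with matches to the κB consensus, the DNA motif that NF-κB dimers bind. RefSeq promoter windows (GRCh38.p14, 300 bases each, 250 before and 50 after a transcription start) were found for 9 of the 10 genes, 13 windows in all. The consensus, 10 bases long and searched on both strands with overlaps allowed, was present in 1 of 13 windows (7.69%), that of TRAF3. Of all 35116 windows 11.3% held it. Among other genes of the pathway it was in 23 of 90 windows (25.6%). Those genes include the NF-κB subunits and inhibitors, with 7 of 12 windows (58.3%). The median share of G and C bases was 66.7% in the windows of the members, 67.8% in those of the other pathway genes and 58.7% in all windows. The stretches below, written 5′ to 3′ along the gene's strand and ending at the base before the start, set the matching member (TRAF3) and the member with the largest difference between days (MAP3K14) beside TNFAIP3 and NFKB2, feedback genes of the pathway that are known NF-κB targets. Capitals mark matches on either strand.
TRAF3, chr14:102777369-102777448, plus strand: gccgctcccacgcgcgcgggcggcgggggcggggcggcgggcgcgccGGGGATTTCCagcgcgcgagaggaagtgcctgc
MAP3K14, chr17:45317021-45317220, minus strand: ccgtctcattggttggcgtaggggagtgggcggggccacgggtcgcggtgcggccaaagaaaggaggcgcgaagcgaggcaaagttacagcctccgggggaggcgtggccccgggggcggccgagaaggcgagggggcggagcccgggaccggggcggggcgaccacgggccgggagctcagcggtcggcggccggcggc
TNFAIP3, chr6:137867159-137867258, plus strand: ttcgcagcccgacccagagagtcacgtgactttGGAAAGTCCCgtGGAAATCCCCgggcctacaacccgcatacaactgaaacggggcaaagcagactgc
NFKB2, chr10:102394458-102394577, plus strand: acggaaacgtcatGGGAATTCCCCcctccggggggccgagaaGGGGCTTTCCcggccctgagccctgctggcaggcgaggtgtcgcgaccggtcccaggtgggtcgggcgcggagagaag
The TRAF3 match begins 33 bases before the start. The TNFAIP3 matches begin 67 and 55 bases before it, both on the minus strand. In NFKB2, which has 3 windows, the window with the most matches is shown. Its capitals cover 3 overlapping matches and 1 single match. Of the other windows of NFKB2, 1 holds 3 matches and 1 holds 0. The MAP3K14 stretch holds no match. A match is a description of the letters and not evidence of binding, and a window without one says nothing about sites elsewhere.

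The question set by the days of induction was whether these genes differed between the early days (1 and 2) and the late days (3 and 4). Of the 7 genes with enough values, 6 had a lower ratio on the late days and 1, IKBKG, had a higher one. The largest differences were those of MAP3K14 (1.58-fold lower late than early) and IKBKG (1.51-fold higher). No gene passed the limma test after adjustment over all 7713 features, of which 0.0648% (5 features) passed. The smallest adjusted p among the 7 was 0.190. At an unadjusted p under 0.05 there were 2 of the 7, MAP3K14 and IKBKG, against 20.0% of all features, so the count does not stand far from the background. That count moved with the arrays used. Without the day 2 array it was 4 of 7 (with MYD88 and TRAF6), against 35.6% of features, and without day 1 it was 2, against 33.4%. Without day 3 or day 4 it was 0 of 7, against 5.48% and 4.83%.

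Among the kinases, MAP3K14 (NIK, the entry kinase of the non-canonical route) showed the largest difference. Its gene mean was 0.47 and 0.12 on the early days and -0.32 and -0.40 on the late days. Both early values lay above 0 and both late values below, with no overlap. The early mean was 0.29 and the late mean -0.36, a difference of -0.66 ± 0.20 (limma standard error, 4 arrays; adjusted p = 0.190). The 2 probes of the gene differed: 17645_1 read 0.467, 0.439, -0.555 and -0.236 on days 1 to 4. Probe 28896_1 had no value on day 1 and read -0.197, -0.092 and -0.564 on days 2 to 4. The turn from above to below 0 is therefore that of 17645_1, whose difference was -0.85, while the difference of 28896_1 was -0.13. Without the day 2 array the gene's difference was -0.83 and passed (limma adjusted p = 0.0201), but in that fit 1301 of 7250 features passed. Over the other alternatives its adjusted p lay between 0.102 and 0.912. Removal of an early array leaves the error to be estimated from the day 3 and day 4 arrays alone. As MAP3K14 had the largest difference of the 7, genes with a like course were sought among 3762 other named genes with values on all 4 days. The smallest Euclidean distances over the 4 day values were those of HDGF (0.087), LSM12 (0.106) and HSPA1A (0.132).

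CHUK encodes IKKα, the kinase shared by both routes. It read 0.03, -0.28, -0.19 and -0.19 on days 1 to 4, so only day 1 lay above 0. The early and late values overlapped, and the difference of -0.07 ± 0.19 (limma adjusted p = 0.850) was smaller than its standard error. Without the day 1 array its sign turned (0.085), and without day 2 it was -0.22. Its probes moved in opposite directions between the early and late days. Probe 17702_1 read 0.033, -0.109, -0.374 and -0.286, and probe 28903_1, without a day 1 value, read -0.444, -0.011 and -0.096. The gene mean thus hides a disagreement of probes: their differences were -0.29 and 0.39, and neither passed in a fit of single probes (adjusted p = 0.423 and 0.424).

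MAP3K7 encodes TAK1, which phosphorylates the IKK complex in the canonical route. Its gene mean was 0.16, 0.01, -0.15 and -0.22 on days 1 to 4. All 4 values were small beside the SD of their array, the largest being -0.57 SD on day 4. The difference was -0.27 ± 0.17 (limma adjusted p = 0.407). Here the probes shared their direction, with differences of -0.23 (17335_1) and -0.18 (28885_1). Both were smaller in size than that of the gene mean, which on day 1 rests on 17335_1 alone, as 28885_1 had no day 1 value. Only 17335_1 went from above to below 0, as 28885_1 was below 0 on each of its 3 days (-0.083, -0.263 and -0.271).

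IKBKG encodes NEMO, the scaffold of the IKK complex, which binds ubiquitin chains and has no kinase activity. It was the only gene of the 7 with a higher ratio late than early. Its single probe, 29666_1, read -0.201 on both early days, then 0.523 and 0.272 on the late days. The early values lay below 0 and the late values above, without overlap. The day 3 value was 1.52 SD of its array from 0 and the day 1 value -0.39 SD. The difference was 0.60 ± 0.18 (limma adjusted p = 0.193). With 1 probe there is no second reading, and IKBKG has a near-identical pseudogene copy that a cDNA probe may not tell apart from it.

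**Figure D1:**
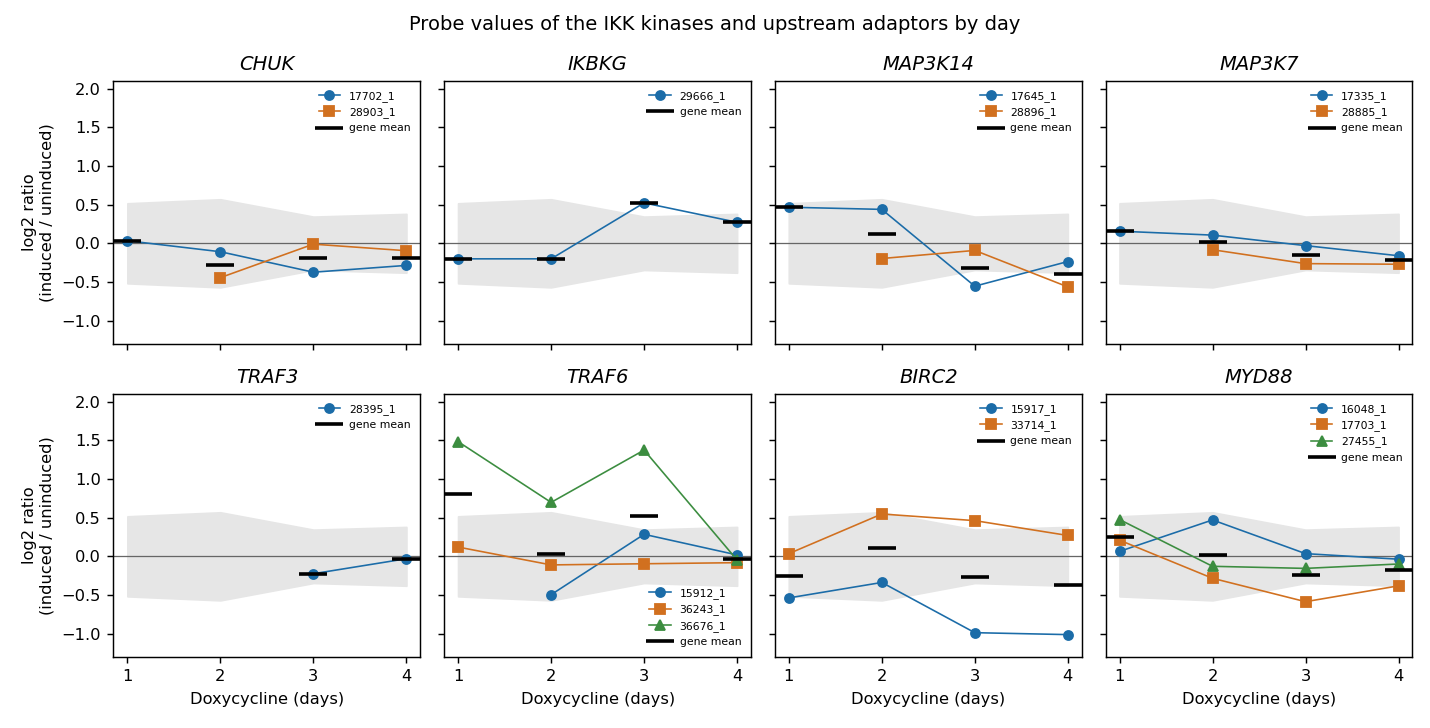
Log2 ratio of induced over uninduced cells (vertical axis) by days of doxycycline (horizontal axis) for the 8 genes with a probe; coloured lines are single probes, black bars the gene mean on each day, and the grey band 1 SD of all probes of that array on either side of 0. The gene means of MAP3K14 and MAP3K7 run from above to below 0, but only 1 of the 2 probes of each gene does so. IKBKG runs the other way, and the probes of TRAF6 and BIRC2 lie apart.

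Among the adaptors and ligases, MYD88, which links Toll-like and interleukin-1 receptors to the pathway, was measured by 3 probes on all 4 days. Its gene mean was 0.25, 0.02, -0.24 and -0.17 on days 1 to 4. Early and late values did not overlap, and the difference was -0.34 ± 0.18 (limma adjusted p = 0.334). It was -0.22 without the day 1 array and -0.45 without day 2, and passed in neither fit. All 3 probes were lower late than early, by differences of -0.27 (16048_1), -0.45 (17703_1) and -0.30 (27455_1). MYD88 was the gene with 3 probes whose probes shared 1 direction, although their values on a single day lay up to 0.755 apart (day 2). None of the 3 had both early values above 0 and both late values below. Probe 16048_1 was still above 0 on day 3, at 0.035, and 17703_1 and 27455_1 were already below 0 on day 2, at -0.284 and -0.129.

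TRAF6 encodes the ligase that builds the ubiquitin chains on which TAK1 and the IKK complex assemble. Its gene mean was 0.80, 0.03, 0.52 and -0.04 on days 1 to 4, an alternation in which early and late days overlapped. The difference was -0.17 ± 0.33 (limma adjusted p = 0.779), and it turned to 0.21 without the day 1 array and to 0.11 without day 4. It was -0.56 without day 2 and -0.45 without day 3. These values followed 1 probe: 36676_1 read 1.484, 0.698, 1.375 and -0.047. Probe 36243_1 read 0.120, -0.111, -0.096 and -0.082, close to 0 on every day. Probe 15912_1, without a day 1 value, read -0.496, 0.285 and 0.018. The probes lay 1.36 apart on day 1 and 1.47 on day 3, but 0.10 apart on day 4. With 36243_1 alone, which is 1 of the probes with the fewest missing values, the difference was -0.09.

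BIRC2 encodes cIAP1, the ligase that, with TRAF2 and TRAF3, keeps NIK low. Its gene mean was -0.25, 0.11, -0.26 and -0.37 on days 1 to 4. The highest late value lay just below the lowest early value, and the difference was -0.24 ± 0.20 (limma adjusted p = 0.504), or -0.42 without the day 1 array and -0.07 without day 2. The mean is a balance of probes of opposite sign. Probe 15917_1 was below 0 on all 4 days, at -0.538, -0.338, -0.988 and -1.013. Probe 33714_1 was above 0 on all 4 days, at 0.035, 0.548, 0.462 and 0.270, and a further probe, 28475_1, had no value. The readings were 0.57 apart on day 1 and 1.45 apart on day 3, wider than any change of the gene mean over the days. The difference was -0.56 for 15917_1 and 0.07 for 33714_1, and in the fit of single probes neither passed (adjusted p = 0.213 and 0.884). BIRC2 and BIRC3 are close paralogs, and BIRC3, with no probe under its symbol, was not analysed here.

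TRAF3, the adaptor that brings NIK to the cIAP ligases, had its single probe (28395_1) read -0.225 on day 3 and -0.031 on day 4. With no early value it has no comparison between early and late days.

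Over the 7 genes the median difference between late and early days was -0.24, against 0.074 over all 7713 features and 0.086 over 45 other measured genes of the pathway. Of all features 43.5% were lower late than early. The median of the 7 genes by day was 0.16, 0.02, -0.19 and -0.19, while that of all features tested was -0.062, -0.081, 0.017 and 0.012. The number of the 7 above 0 was 5, 5, 2 and 1 on days 1 to 4, against 44.1%, 41.6%, 52.9% and 51.5% of all features tested. Both late values lay below both early values for 4 of the 7 (MAP3K14, MAP3K7, MYD88 and BIRC2), against 22.4% of features with 4 values. They lay above both for 1 (IKBKG), against 32.1%. In 4 (MAP3K14, MAP3K7, MYD88 and IKBKG) the early values lay on one side of 0 and the late values on the other, against 20.9%. Among single probes this held for 3 of the 11 with 4 values, 1 each of MAP3K14, MAP3K7 and IKBKG and none of MYD88. The genes were chosen with earlier results of these data known, so these counts describe the list and are not a test of it. Among plasma cell markers 9 of 10 were also lower late than early, with a median difference of -0.45. XBP1 had the largest difference, at -0.76 (0.85, 0.70, 0.24 and -0.20 on days 1 to 4). Those of MZB1 and SSR4 were small (-0.09 and -0.05), and CD38 was higher late than early (0.12). The part of this course of plasma cell markers in the values of the 7 genes was not tested. T cell markers had a median difference of -0.11 (7 of 9 measured, 4 lower and 3 higher) and myeloid markers of -0.017 (5 of 8 measured, 3 lower and 2 higher).

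**Figure D2:**
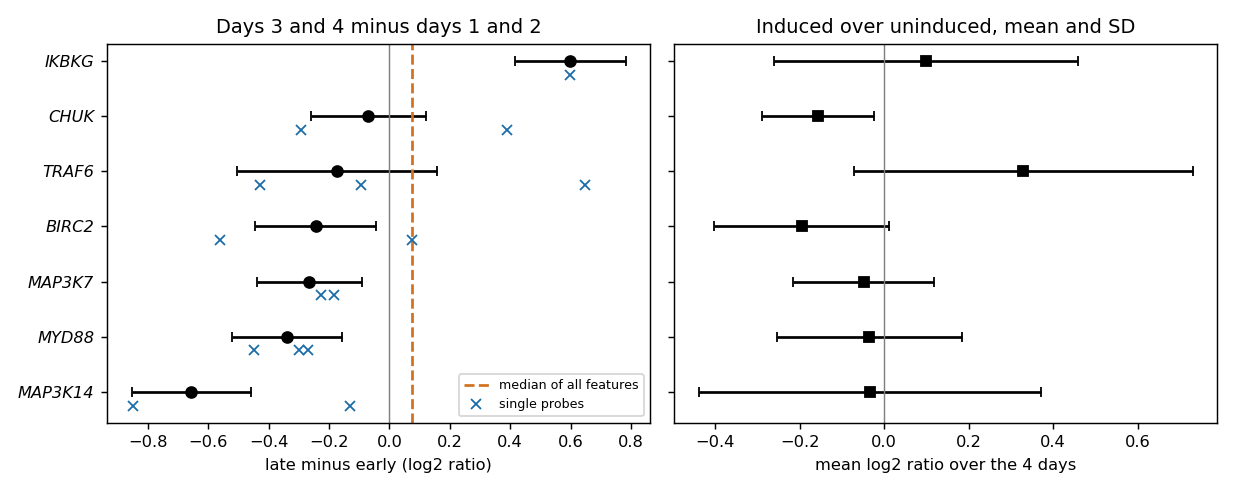
Left, difference of the mean log2 ratio between days 3 and 4 and days 1 and 2 for the 7 genes (points, with the limma standard error), with single probes as crosses and the median of all features (0.074) as a dashed line. Right, mean log2 ratio over the 4 days with its SD. MAP3K14 (-0.66) and IKBKG (0.60) lie at the ends, the probes of CHUK, TRAF6 and BIRC2 fall on both sides of 0, and in the right panel no mean passes the test.

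Day by day, few probes of these genes reached a 2-fold difference between induced and uninduced cells. On day 1 it was 1 of 11 (TRAF6 36676_1), against 4.93% of all probes with a value. On day 2 it was 0 of 15, against 6.53%. On day 3 it was 1 of 16 (again TRAF6 36676_1) and on day 4 1 of 16 (BIRC2 15917_1, at -1.013), against 1.37% and 2.04%. No gene mean reached 2-fold on any day.

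The second comparison asked whether the genes differed between induced and uninduced cells on average over the 4 days. None of the 7 did by limma, against 0.337% of all features called, and at an unadjusted p under 0.05 there were 0 of the 7, against 12.5%. The means were 0.33 ± 0.40 for TRAF6 (SD over 4 arrays), 0.10 ± 0.36 for IKBKG, -0.03 ± 0.41 for MAP3K14, -0.03 ± 0.22 for MYD88, -0.05 ± 0.17 for MAP3K7, -0.16 ± 0.13 for CHUK and -0.20 ± 0.21 for BIRC2. In 6 of the 7 the SD was larger than the mean, the exception being CHUK. The smallest adjusted p was 0.469 (TRAF6). The TRAF6 mean was 0.17 without the day 1 array and 0.45 without day 4, where TRAF6 alone of the 7 had an unadjusted p under 0.05. The BIRC2 mean was -0.30 without day 2. The TRAF6 mean rests on 36676_1, which averaged 0.88, while its other probes 36243_1 and 15912_1 averaged -0.04 and -0.06. For BIRC2 the probe means were -0.72 and 0.33, and neither passed in the fit of single probes (limma adjusted p = 0.140 and 0.355).

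As a linear trend over days, MAP3K14 had the steepest slope of the 7, at -0.30 ± 0.09 log2 per day (limma standard error; adjusted p = 0.304). IKBKG had the only positive one, at 0.21 ± 0.11 (adjusted p = 0.392). No feature passed on the slope (0% of 6427). At an unadjusted p under 0.05 there was 1 of the 7, MAP3K14, against 15.0% of features.

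The other genes of the pathway were taken from a list of 71 in 6 roles, of which 48 had a named probe and 45 a value on at least 3 arrays. Between late and early days 0 of the 45 passed, with 18 lower and 27 higher. On the mean 1 passed, TNFAIP3 (A20, which removes activating ubiquitin chains), with values of -1.07, -1.52, -1.58 and -1.70 on days 1 to 4 (limma adjusted p = 0.0178). It was lower in induced cells on every day, as no gene of the 7 was. TNIP2, a partner of A20, had a mean of -0.52 ± 0.31 (SD) and did not pass.

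Of the 10 measured kinases and kinase partners 5 were lower and 5 higher on the late days, with a median difference of 0.0054. TAB2, the subunit that ties TAK1 to ubiquitin chains, read -0.28, -0.14, 0.22 and 0.32 on days 1 to 4. Its difference of 0.47 ± 0.18 (limma standard error; adjusted p = 0.226) had the opposite sign to that of its kinase MAP3K7. TBK1, an IKK-related kinase, had a mean of -0.31 ± 0.17 (SD), and the kinase chaperone CDC37 of 0.36 ± 0.17. Of 6 measured adaptors 4 were higher late than early, with a median of 0.21, and FADD had a mean of -0.26 ± 0.07. Only 3 of 11 ubiquitin ligases and conjugating enzymes were measured, among them UBE2V1, which helps to build the chains made by TRAF6, at 0.69, 0.61, 0.31 and 0.14 on days 1 to 4. Apart from TNFAIP3, none of these passed either test.

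At the receptor end, 12 of 17 genes were measured, 6 lower and 6 higher late than early, with a median of 0.042. The TNF receptor TNFRSF1B had a mean of -0.54 ± 0.11, TNFRSF11A (RANK) of -0.40 ± 0.07 on 3 arrays, TNFRSF17 (BCMA) of 0.50 ± 0.30 and the interleukin-1 receptor chain IL1RAP of 0.32 ± 0.17 (SD), and none passed. At the other end, below the IKK complex, 7 of 9 NF-κB subunits and inhibitors were higher late than early, with a median difference of 0.33. RELA, the canonical activating subunit, read 0.51, 1.44, 0.13 and -0.09 on days 1 to 4. NFKBIB, which encodes IκBβ, read -0.43, -1.32, -0.02 and -0.03. Their differences of -0.95 ± 0.33 and 0.85 ± 0.31 (limma adjusted p = 0.214 and 0.225) did not pass. In the non-canonical pair, NFKB2 had a mean of -0.88 ± 0.43 and RELB of -0.73 ± 0.21 (limma adjusted p = 0.125 and 0.094).

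**Figure D3:**
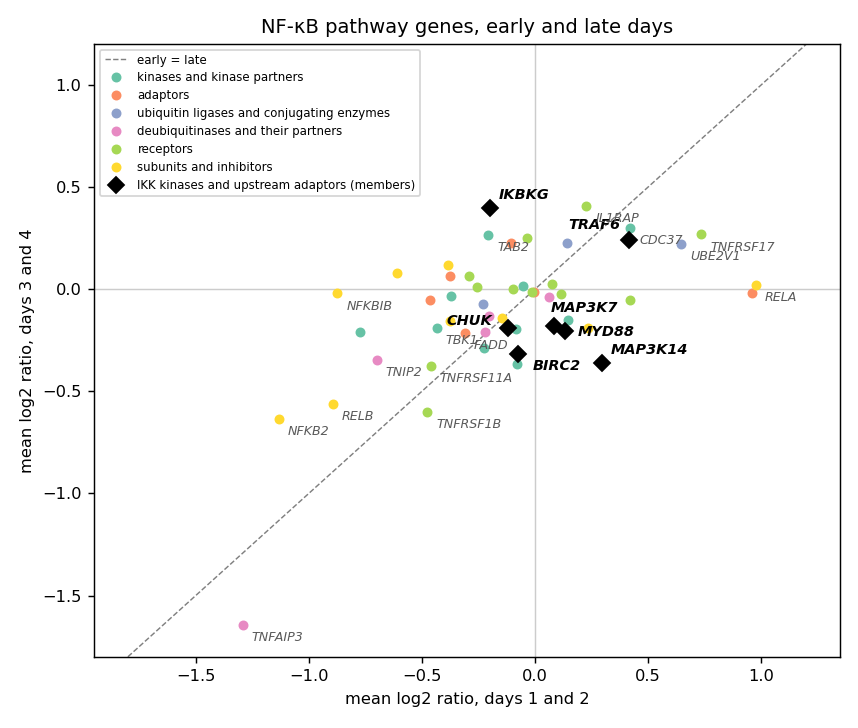
Mean log2 ratio on days 1 and 2 (horizontal axis) against days 3 and 4 (vertical axis) for the 7 genes (black diamonds) and 45 other genes of the pathway, coloured by role; the dashed line marks equal values, and grey names mark other genes at an unadjusted p under 0.05 in either comparison. MAP3K14, MYD88, MAP3K7, BIRC2, TRAF6 and CHUK lie below the line, IKBKG lies above it, and TNFAIP3 lies far below 0 on both axes.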

How the data were processed

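Each deposited value is the log ratio of Cy5 to Cy3 at a probe, used as log2, and array medians lie near 0. How the authors corrected background, normalized and filtered spots, and why values are missing, is not stated in the labels read here. Per the labels' protocols, each dye labelled cDNA from 50 µg of total RNA, with no dye swap. No intensities were used, so dim spots could not be filtered.

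Of 15246 probes, 10169 had 1 gene symbol, 4 had several and 5073 are unnamed here. Current symbols came from RefSeq (GRCh38.p14) by Entrez identifier, which matched for 10128 probes. Probes of a gene were averaged per array, giving 9681 features. The array annotation names no build, so its genes are given without coordinates.

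Fits with limma 3.58.1 in R 4.3.3 (lmFit, eBayes, two-sided, Benjamini-Hochberg over all features, threshold 0.05) gave days 3 and 4 against days 1 and 2, the mean against 0 (values on at least 3 arrays) and the slope on day (4 arrays). They were also run on simulated data, with added shifts far larger than any difference of the member genes. That run does not show how the fits do at small differences. Each day has 1 array and nothing says that the arrays came from separate cultures, so p-values measure the spread between these arrays. That spread may be technical, and it also holds any change between the days that a fit puts together. These are days 1 and 2 and days 3 and 4 in the late against early fit, and all 4 days in the mean. The labels do not say whether the uninduced RNA was 1 preparation. If it was, the arrays share it and the mean leaves out its spread. A dye bias or an effect of doxycycline itself cannot be told apart from induction.

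The members and lists were chosen with earlier results of these data known. Named genes were all members, the other pathway genes at an unadjusted p under 0.05 in either comparison (in a role without one, the 2 with the largest difference), and the 3 genes nearest to the member with the largest difference. Alternatives covered array scaling, centring and weights, missing values, the choice of probes and each array left out; single probes as features were added after seeing the data.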

Additional observations from a re-analysis of the deposited data

Results flagged for a closer look

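In 4 of the 7 measured genes the mean over probes on both early arrays lay on one side of 0 and on both late arrays on the other, as in 20.9% of features with 4 values. These were MAP3K14 (difference of late minus early -0.66), MYD88 (-0.34) and MAP3K7 (-0.27), which went from above to below 0, and IKBKG (0.60), which went from below to above. For MYD88 the turn is seen only in the mean, as none of its 3 probes turned in this way, and for MAP3K14 and MAP3K7 it is seen in 1 of 2 probes. The day 2 gene means of MYD88 (0.02) and MAP3K7 (0.01) lay close to 0. None passed the limma test of the difference over all features, and with 2 arrays on each side and 1 array a day the sides have no replicates of a day.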

How the results depend on the processing

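For late against early days, 5 features were called; 0 were called with values on all 4 arrays required, 1 with only probes with values on all 4 arrays, 2 with arrays centred on their medians, 8 with single probes as features, and 0 (without the day 3 or day 4 array) to 1301 with an array left out. For the mean, 26 were called; 3 were called with arrays scaled to the same spread, 42 with values on all 4 arrays required, 291 with array weights, 55 with single probes as features and 3 to 5 with an array left out. The slope gave 0 under every alternative run. The causes of these moves were not tested. The median difference of the 7 genes ran from -0.34 to -0.19 with an array left out.

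For single genes, the differences of MAP3K14, IKBKG, MAP3K7, MYD88 and BIRC2 kept their sign in all 11 alternatives, the slope included. With an array left out, that of CHUK ran from -0.22 to 0.085 (above 0 without day 1) and that of TRAF6 from -0.56 to 0.21 (above 0 without day 1 or day 4). That of BIRC2 ran from -0.42 (without day 1) to -0.07 (without day 2) and that of MYD88 from -0.45 (without day 2) to -0.22 (without day 1). The signs of the means were less stable. With an array left out they ran from -0.043 to 0.20 for IKBKG, -0.20 to 0.088 for MAP3K14, -0.12 to 0.0073 for MAP3K7 and -0.13 to 0.032 for MYD88. Those of TRAF6 (0.17 to 0.45), BIRC2 (-0.30 to -0.14) and CHUK (-0.22 to -0.12) kept their sign. When each gene was read from 1 probe with the fewest missing values, the means were 0.029 for MAP3K14, 0.018 for MAP3K7, -0.042 for TRAF6 and 0.13 for MYD88. Probes of TRAF6, MYD88 and BIRC2 tied, and the lowest probe number was taken, so these readings depend on that order. The tied probes not taken averaged 0.88 for TRAF6 (36676_1) and -0.26 and 0.02 for MYD88 (17703_1 and 27455_1). For BIRC2 the probe taken averaged -0.72. The other, 33714_1, averaged 0.33, and its late minus early difference was 0.07. With only probes with values on all 4 arrays the means were 0.029 for MAP3K14 and 0.018 for MAP3K7. Each ratio already sets induced against uninduced cells within 1 array. Early and late arrays were not paired with each other, as each day holds 1 array. Precision is limited by having 4 arrays, and signal over background is unknown here.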
